A study of Mus musculus with 12 samples.

Results

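The chemokine ligands, the chemokine receptors and the atypical chemokine receptors were examined in the liver of control and anemic neonatal mice. The set held every gene whose symbol followed the chemokine scheme, that is a Ccl or Cxcl number, Cx3cl1 or Xcl1 for ligands, a Ccr or Cxcr number, Cx3cr1 or Xcr1 for receptors, and Ackr numbers or Ccrl2 for atypical receptors, each with at most 1 further letter. It came to 67 gene identifiers of the 32285 listed, carrying 61 symbols. Of these, 44 identifiers were ligands, 18 were receptors and 5 were atypical receptors (Ackr1, Ackr2, Ackr3, Ackr4 and Ccrl2). Pf4 and Ppbp, the chemokines of platelets, fall outside the symbol scheme and were treated as neighbours.

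Livers of C57BL/6J pups were collected on postnatal day 11 from 6 control mice, which had only a daily needle stick, and from 6 mice made anemic by removing 20 µL of blood per g of body weight every 2 days from postnatal day 2 to postnatal day 10. All pups were nursed by their dams, and those of a litter were assigned to the groups at random. Each liver gave 1 single-cell RNA library from enzyme-dissociated cells, so each mouse is 1 replicate, and all 12 libraries carry the same batch label. The question was which cells express chemokines (senders), which express the receptors (receivers), and what differed in the anemic liver. The labels give neither the sex nor the litter of a mouse, and reads of Y-linked genes were under a log2 CPM of 3 in 4 control and in 2 anemic mice.

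Chemokines are small secreted proteins that guide the movement of leukocytes along gradients, and their receptors are G protein-coupled receptors of the migrating cell. Atypical receptors bind chemokines without G protein signaling and remove or move them, which shapes the gradients. In the liver, Kupffer cells, sinusoidal endothelium and stellate cells are known sources of chemokines, and the neonatal liver still holds blood-forming cells that use the same signals.

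After filtering, 206146 cells were kept, of which 98075 were control and 108071 anemic cells. UMIs (unique molecular identifiers, which count RNA molecules) came to between 45751640 and 74344118 per mouse. The members held 2685841 UMIs in all, which was 2036 to 6909 CPM of a library (CPM, UMIs per 1000000 UMIs). Both extremes were anemic mice, and the 6 controls lay between 2996 and 4284. The highest was the mouse labelled anemia 2, which was also the highest of the 12 mice in 134 of the 398 tested pairs of a member and a cell class and in 94 of the 262 pairs with a ligand. It gave 4548 of the 9967 monocyte-like cells and only 6.98% of its macrophage-like cells fell in the main macrophage-like cluster, against 54.7% to 71.9% in the other 11 mice. Values without it are also given, though not for every result. Libraries shared 51 to 121 cell barcodes with each other.

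Cells were grouped into 59 clusters without use of any member gene, and clusters were named from markers. Named classes were macrophage-like (18010 cells), monocyte-like (9967), neutrophil-like (12179), granulocyte progenitor-like (2148, which also carried megakaryocyte markers), NK-like (12014), B-like (23222), T-like (6871), pre-B-like (10974), plasmacytoid dendritic-like (3699), conventional dendritic-like (3819), basophil/mast-like (750), erythroid-like (30973), hepatocyte-like (18072), endothelial-like (25539), stellate-like (5967) and cholangiocyte-like (664), while 21278 cells stayed unnamed. The 9 hepatocyte markers summed to between 100300 and 150400 CPM in the hepatocyte-like cells of a mouse and none was at 0. In the stellate-like and cholangiocyte-like classes 56.9% and 66.7% of cells had doublet scores past the limit, against 4.21% of erythroid-like cells. Doublets were kept in the class sums, and each call of a member lost without them is named with its value. For genes outside the member set, values without doublets are not given. For each class and mouse, CPM were taken relative to the UMIs of all genes in that class. A level is compared between classes for 1 gene at a time, not between genes. Free RNA was not subtracted, so low levels in a class may include molecules of other cells.

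The 250 bases before the start of 6 members on which the comparisons turn are shown from RefSeq (GRCm38.p6), in the direction of transcription. They are Ccl9 (chr11:83578637-83578886, minus strand) and its receptor Ccr1 (chr9:123968693-123968942, minus strand), Cxcl9 (chr5:92328080-92328329, minus strand) and Cxcl10 (chr5:92348890-92349139, minus strand), which are neighbours on chromosome 5, and 2 ligands highest in the stellate-like class, Cxcl12 (chr6:117168285-117168534, plus strand) and Ccl19 (chr4:42756366-42756615, minus strand). Capitals mark the letters searched on both strands, which were TTTCNNTTT for an interferon-stimulated response element, TTCNNNGAA for a STAT site, GGGANTTTC for a kappaB site, ACGTG for a hypoxia response element and TATAAA for a TATA box.
Ccl9: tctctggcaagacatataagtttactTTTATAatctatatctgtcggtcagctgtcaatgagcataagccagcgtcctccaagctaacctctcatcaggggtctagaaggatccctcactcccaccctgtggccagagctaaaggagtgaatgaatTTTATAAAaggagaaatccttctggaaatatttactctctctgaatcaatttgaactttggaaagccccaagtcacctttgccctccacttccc
Ccr1: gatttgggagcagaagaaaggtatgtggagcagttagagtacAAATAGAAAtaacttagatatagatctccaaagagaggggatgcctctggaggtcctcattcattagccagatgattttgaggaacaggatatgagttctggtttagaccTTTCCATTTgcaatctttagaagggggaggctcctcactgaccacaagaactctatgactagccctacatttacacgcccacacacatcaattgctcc
Cxcl9: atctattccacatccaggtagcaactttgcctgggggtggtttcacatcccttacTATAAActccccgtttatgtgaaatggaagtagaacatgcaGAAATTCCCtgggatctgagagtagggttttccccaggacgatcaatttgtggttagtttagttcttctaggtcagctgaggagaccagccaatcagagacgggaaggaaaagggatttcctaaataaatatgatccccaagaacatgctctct
Cxcl10: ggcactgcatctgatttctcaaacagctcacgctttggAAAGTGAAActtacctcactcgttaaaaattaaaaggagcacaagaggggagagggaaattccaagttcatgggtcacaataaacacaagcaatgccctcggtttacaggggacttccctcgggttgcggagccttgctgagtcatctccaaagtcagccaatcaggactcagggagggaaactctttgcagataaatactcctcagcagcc
Ccl19: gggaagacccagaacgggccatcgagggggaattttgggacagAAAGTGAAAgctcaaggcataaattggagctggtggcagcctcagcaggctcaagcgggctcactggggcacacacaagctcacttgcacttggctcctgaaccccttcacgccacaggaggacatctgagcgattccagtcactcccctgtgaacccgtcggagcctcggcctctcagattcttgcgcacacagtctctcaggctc
Cxcl12: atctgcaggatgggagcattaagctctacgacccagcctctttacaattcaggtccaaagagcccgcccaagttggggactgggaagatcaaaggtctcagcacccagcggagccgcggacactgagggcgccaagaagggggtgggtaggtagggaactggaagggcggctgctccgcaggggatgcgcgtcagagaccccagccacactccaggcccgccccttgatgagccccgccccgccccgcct
Ccl9 held 3 TATA matches, of which 2 overlap on opposite strands. Ccr1 held 2 matches to the interferon-stimulated response element, Cxcl10 and Ccl19 1 each, and Cxcl9 held a kappaB match and a TATA match. In the Cxcl12 window none of these letters was found.

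Promoters of 46 member symbols (55 windows) were present among 32851 windows of all genes. The kappaB letters were in 6 member windows, those of Cxcl1, Cxcl2, Cxcl3, Cxcl9, Cxcr2 and Ccr3, and in 0.941% of all windows. The interferon-stimulated response element letters were in 6 member windows (9.37% of all), the STAT letters in 3 (7.02% of all), the hypoxia letters in 10 (16.6% of all) and the TATA letters in 14 (12.4% of all). A match describes the letters of the window and is no measured binding.

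Ligands of the macrophage- and endothelial-like cells marked these as senders with different products. Ccl24, an eotaxin that acts through Ccr3, was highest in macrophage-like cells at 645 ± 256 CPM (SD, n = 12 mice), and these cells gave 79.5% of its UMIs. Ccl2 and Ccl7, the attractants of Ccr2-bearing monocytes, were also highest there at 176 ± 63.2 and 94.8 ± 43.1 CPM, with stellate-like cells next at 124 ± 83.5 and 31.4 ± 26.1. The ranges over mice of these classes overlapped for Ccl2 and Ccl7 but not for Ccl24, whose next class was monocyte-like at 25.8 ± 20.2 CPM. Endothelial-like cells had the highest level of Cxcl10 (727 ± 364 CPM, 53.9% of its UMIs), of Cxcl9 (179 ± 336, or 89.1 ± 129 over the 11 mice without anemia 2) and of Ccl21a (215 ± 220, 92.4% of its UMIs). Cxcl9 and Cxcl10 are interferon-induced ligands of Cxcr3, and Ccl21a is the lymphatic ligand of Ccr7. Ccl21a was highest in cluster 29, which pooled at 1388 CPM, and ranged from 8.55 to 716 CPM over the mice in the whole class.

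Stellate-like cells had the highest levels of Cxcl12 and Ccl19. Cxcl12, which retains blood-forming cells and lymphocytes through Cxcr4, stood at 1022 ± 288 CPM there and at 163 ± 41.7 CPM in hepatocyte-like cells, and the ranges of these classes over the mice did not overlap. Stellate-like cells gave 74.9% of its UMIs. Ccl19, the other ligand of Ccr7, stood at 87.2 ± 90.2 CPM with 87.9% of its UMIs in this class. Within the class Ccl19 was higher in cluster 40, led by Mfap4, Col1a1, Dpt and Lum, than in cluster 0, led by Colec11 and Reln among others. Cxcl1, a neutrophil attractant, was highest in cholangiocyte-like cells (143 ± 91.7) and next in stellate-like cells (126 ± 54.9), and this order held in only 6 of 12 mice. Ccl27a was also highest in cholangiocyte-like cells (27.1 ± 8.23) before hepatocyte-like cells (19.1 ± 4.1). Ccl11, an eotaxin, reached only 13.2 ± 7.62 CPM but had 94% of its UMIs in stellate-like cells.

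Among blood-derived senders, NK-like cells led with Ccl5 and Xcl1. Ccl5, a ligand of Ccr1, stood at 19530 ± 4060 CPM in NK-like cells, which gave 59.6% of its UMIs. Xcl1, the ligand that draws Xcr1-bearing dendritic cells, stood at 509 ± 76.3 CPM, with a further 32.8% of its UMIs in unnamed clusters. The small basophil/mast-like class was highest for Ccl4 (8308 ± 2909), Ccl3 (2874 ± 960), Cxcl2 (2827 ± 1104), Ccl6 (1220 ± 377) and Ccl9 (523 ± 198). This class had only 750 cells, 29.5% of them with doublet scores past the limit, and other classes gave the largest shares of the molecules, with macrophage-like cells giving 42.8% of the Cxcl2 and 41.3% of the Ccl6 UMIs, NK-like cells 21.6% of the Ccl4 UMIs, neutrophil-like cells 19.3% of the Ccl3 UMIs (9.36% without anemia 2, when NK-like cells gave the most at 17.9%) and hepatocyte-like cells 30.1% of the Ccl9 UMIs. For Cxcl2, neutrophil-like cells were next at 2752 ± 3091 CPM, with overlapping ranges and this order in 8 of 12 mice. Without anemia 2 Cxcl2 stood at 2648 ± 958 CPM in basophil/mast-like, 2584 ± 794 in macrophage-like and 1896 ± 923 in neutrophil-like cells. Conventional dendritic-like cells were highest for Ccl22 (104 ± 55.5, 84% of its UMIs) and Ccl17 (20.6 ± 19.1), both ligands of Ccr4, and for Cxcl16 (163 ± 28.3), the ligand of Cxcr6. Cxcl16 was nearly as high in macrophage-like cells (148 ± 19.2), and the ranges overlapped. Ccl25, the ligand of Ccr9, was highest in pre-B-like cells at 37.2 ± 7.67 CPM and was above 20 CPM in 8 further classes, so no class stood out.

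**Figure D1:**
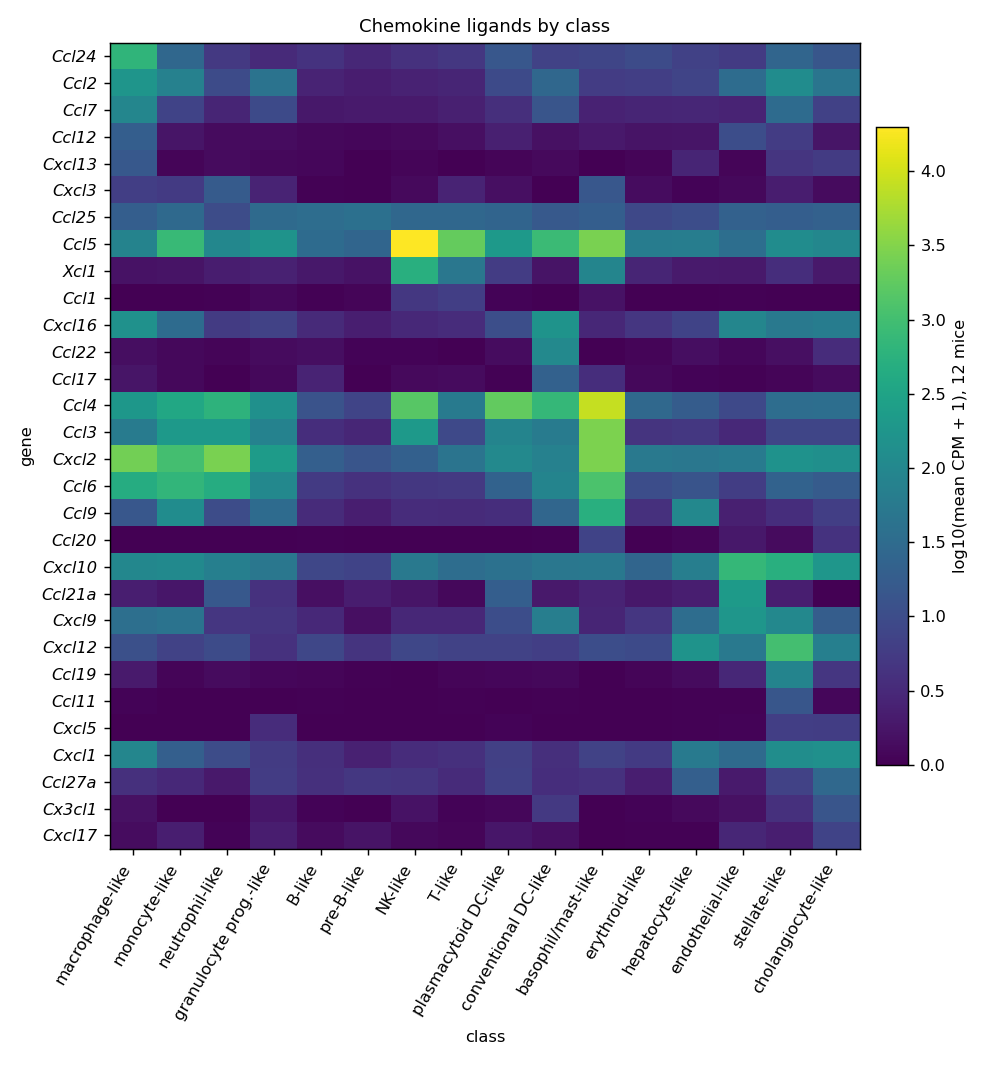
Mean level over 12 mice of each ligand with at least 5 CPM in a class, on a log10(mean CPM + 1) color scale, with genes in rows sorted by the class where they are highest and classes in columns. Ccl5 in NK-like cells (19530 CPM) is the brightest field, and Cxcl12 and Ccl19 are bright in the stellate-like column, at 1022 and 87.2 CPM.

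Several receptors had most of their UMIs in 1 class. Ccr9 marked plasmacytoid dendritic-like cells at 1049 ± 127 CPM (88.9% of its UMIs), where the next class, conventional dendritic-like cells, stood at 17 ± 3.8. Xcr1 marked conventional dendritic-like cells at 206 ± 35.7 CPM (88.3% of its UMIs). Cxcr2, the receptor of the Cxcl1 and Cxcl2 family, marked neutrophil-like cells at 145 ± 19.8 CPM (88% of its UMIs). In each of these 3 cases the ranges of the highest and the next class over mice did not overlap. Ccr1 was highest in neutrophil-like cells at 287 ± 110 CPM, before basophil/mast-like cells at 97.5 ± 44 and monocyte-like cells at 89.9 ± 25.5. Monocyte-like cells were highest for Ccr2 (416 ± 99.8), Cxcr4 (294 ± 101) and Cx3cr1 (147 ± 40.1), the receptors for recruitment, retention and patrolling. Only for Ccr2 did the ranges of the highest and the next class not overlap. Cxcr4 was next in basophil/mast-like cells at 166 ± 59.1 CPM, with this order in 11 of 12 mice. Cx3cr1 was next in endothelial-like cells at 97 ± 26.9 CPM, with this order in 10 of 12 mice. Endothelial-like cells gave 40.4% of the Cx3cr1 UMIs, the largest share.

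Ccr7, which leads cells into lymphoid tissue, was highest in B-like cells at 277 ± 29.3 CPM, then in T-like cells at 164 ± 27.3. Cxcr5, the receptor of Cxcl13 in B-cell follicles, was highest in B-like cells at 59.9 ± 14.8 CPM. NK-like cells were highest for Cxcr6 (185 ± 40) and Cxcr3 (46.7 ± 7.2), with T-like cells next at 125 ± 23.9 and 40 ± 11.1, and T-like cells were highest for Ccr4 (20.3 ± 4.17). Ccr3 was highest in macrophage-like cells at 23.7 ± 12.6 CPM, the same class as its ligand Ccl24. Of the atypical receptors, Ackr2, a scavenger of inflammatory CC chemokines, was highest in endothelial-like cells at 50.5 ± 7.53 CPM, and Ackr3, a scavenger of Cxcl12, was highest in stellate-like cells at 49.1 ± 14 before endothelial-like cells at 39.2 ± 12.3. For Ackr3 the ranges overlapped, this order held in 8 of 12 mice and endothelial-like cells gave 50.7% of the UMIs. Ccrl2, which binds chemerin without signaling, was highest in neutrophil-like cells (377 ± 521) before monocyte-like cells (291 ± 148). That first place held in 5 of 12 mice and the highest value, 2008 CPM, was that of anemia 2, without which the neutrophil-like mean was 229 ± 93.1 CPM. Without that mouse the monocyte-like mean was higher, at 251 ± 59.2 CPM.

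**Figure D2:**
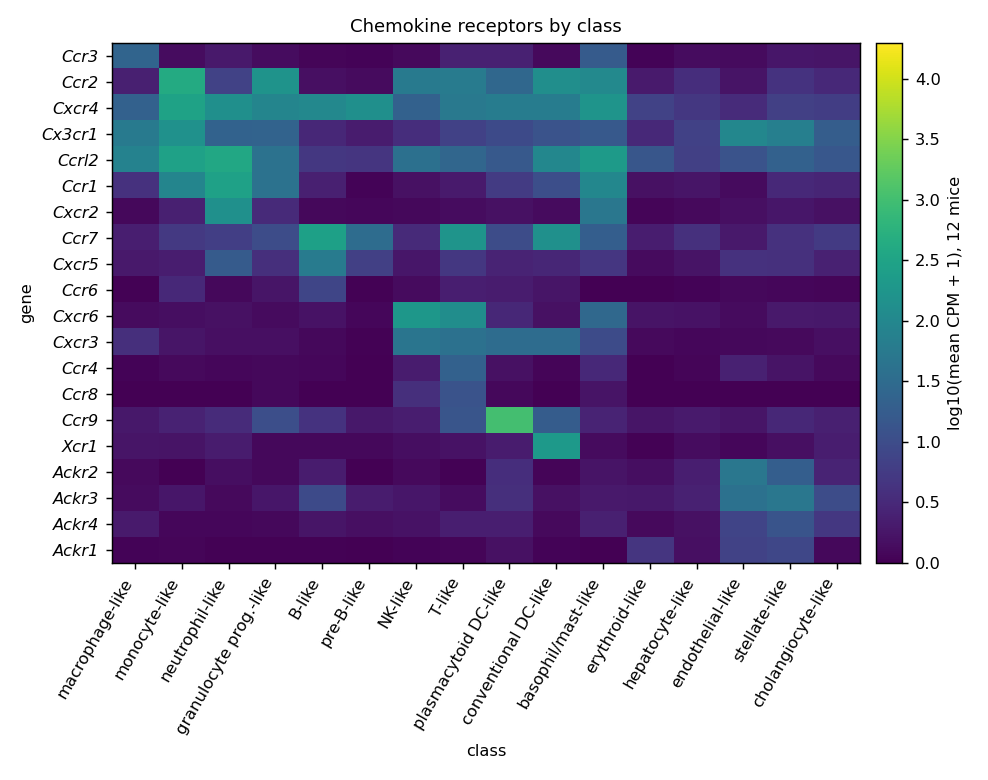
Mean level over 12 mice of the receptors and atypical receptors reported here with at least 5 CPM in a class, on the same log10(mean CPM + 1) color scale, with genes in rows and classes in columns. Single bright fields belong to Ccr9 in plasmacytoid dendritic-like cells (1049 CPM), Xcr1 in conventional dendritic-like cells (206 CPM) and Cxcr2 in neutrophil-like cells (145 CPM).

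Known ligand and receptor pairs were set side by side by the class of their highest level. Cxcl12 was highest in stellate-like cells and Cxcr4 in monocyte-like cells, with pre-B-like cells giving the largest share of Cxcr4 UMIs (20.7%). Xcl1 was highest in NK-like and Xcr1 in conventional dendritic-like cells. Cxcl9 and Cxcl10 were highest in endothelial-like and Cxcr3 in NK-like cells, Cxcl16 was highest in conventional dendritic-like and Cxcr6 in NK-like cells, and Ccl19 was highest in stellate-like and Ccr7 in B-like cells. Cx3cl1 reached only 12.5 ± 4.17 CPM, in cholangiocyte-like cells, while Cx3cr1 reached 147 CPM in monocyte-like cells, with endothelial-like cells giving the largest share of Cx3cr1 UMIs (40.4%). Of the Cxcl13 UMIs 57.1% lay in unnamed clusters, and in macrophage-like cells its level ranged from 0.431 to 93 CPM over the mice. Ccl20 and its receptor Ccr6 did not pass 6.97 CPM in any class, and Ccr10, the receptor of Ccl27a and Ccl28, had only 131 UMIs.

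Of the 67 identifiers, 53 had enough UMIs (a mean of at least 5 per mouse) to be tested in at least 1 class and 14 were tested in none. Of these 14, 8 were listed at 0 UMIs, among them 6 further identifiers of the symbols Ccl19, Ccl21a, Ccl21b, Ccl21c and Ccl27a. Reads that fit several copies of these genes equally well may not have been counted, so values for Ccl19, Ccl21a and Ccl27a are uncertain. The remaining 6 had few UMIs, with 131 for Ccr10, 107 for Cxcl14, 75 for Ccl28, 12 for Cxcl15, 5 for Cxcr1 and 1 for Ccl21b.

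Anemic and control mice (n = 6 each) were compared class by class on summed UMIs with edgeR, and a gene was called at an adjusted p under 0.05 over all genes tested in that class. Fold changes are log2 values of anemic over control mice with their SE and use TMM scaling, while CPM values do not. In hepatocyte-like, erythroid-like and all cells this scaling moved the median of all genes by 0.38, 0.37 and 0.24, and elsewhere by at most 0.10. Across the 16 classes 398 pairs of a member and a class were tested, and 15 were called higher and 16 lower in anemia. Those called higher include Ccl21a and Ccr1 in stellate-like cells, which were tested only through the anemic mice. Without TMM scaling the split was 13 higher and 22 lower. Most calls were in hepatocyte-, stellate- and endothelial-like cells, where many genes of all kinds were called. The share of all genes called is given class by class.

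In macrophage-like cells of the anemic liver Ccl9 rose, and it was the only 1 of 36 tested members to be called there, where 1.63% of all genes were called. Here and below this class leaves out cluster 49, which scored highest for macrophage markers but stayed unnamed as mixed with monocyte markers. That cluster held 0.307% of control and 1.96% of anemic cells, and 54% of its cells came from anemia 2. Ccl9 is a ligand of Ccr1. It stood at 5.21, 6.38, 7.8, 6.18, 6.02 and 6.39 CPM in the controls and at 16.7, 12.3, 18.8, 21.2, 36.1 and 19.7 CPM in the anemic mice. Every anemic mouse was above every control. The means were 6.33 ± 0.841 and 20.8 ± 8.1 CPM (SD, n = 6 each), which gave a log2 fold change of 1.83 ± 0.20 (adjusted p = 0.000279). The call held without each mouse in turn (1.61 to 1.91) and in all 11 alternative fits. Both means were below those of hepatocyte- and monocyte-like cells in the same group, given next, and below those of all cells summed. Free RNA was not subtracted, and its part in the rise was not tested. Within cluster 1, the largest macrophage-like cluster, Ccl9 also rose, from 5.92 ± 1.52 to 20.7 ± 8.28 CPM (1.94 ± 0.22, adjusted p = 0.000166). In that cluster 2 of 34 members were called, against 3.06% of all genes, the other being Cxcl12 with a log2 fold change of -0.78 ± 0.17 (adjusted p = 0.0206).

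Hepatocyte-like cells, which gave the largest share of Ccl9 UMIs, showed the same direction. Ccl9 stood between 68.2 and 87.9 CPM in the controls and between 99.2 and 140 CPM in the anemic mice, so the groups did not overlap. The means were 76.6 ± 8.61 and 121 ± 13.3 CPM and the log2 fold change was 0.97 ± 0.10 (adjusted p = 6.33e-07), again called without each mouse and in all 10 alternatives. Within the 5 hepatocyte-like clusters the log2 fold changes were smaller, at 0.61 in cluster 8 (adjusted p = 0.0224) and at 0.22 to 0.42 in the other 4, which were not called. Pooled over mice, Ccl9 stood at 47.9 CPM in cluster 8 and at 125 to 134 CPM in the other 4, and the share of cluster 8 was lower in anemic mice, so level and cluster share cannot be told apart in the class value. The median depth was 3388 UMIs per cell in cluster 8 and 687 to 2546 in the other 4, and its part was not tested. In monocyte-like cells Ccl9 stood at 95.9 ± 23.7 CPM in controls and 145 ± 56 CPM in anemic mice, with overlapping values and a log2 fold change of 0.62 ± 0.25 (adjusted p = 0.241, and 0.76 with adjusted p = 0.0449 without anemia 2). The 2 monocyte-like clusters, 33 and 55, pooled at 117 and 75.7 CPM of Ccl9, and cluster 55 took a larger share of the class in anemia 2 and anemia 3 than in the other mice. Within cluster 33 the log2 fold change was 0.62 (adjusted p = 0.203) and within cluster 55 it was 0.23 (adjusted p = 0.909). The log2 fold change in monocyte-like minus that in macrophage-like cells, tested in 1 model with mouse as a block, was -1.12 ± 0.23 (adjusted p = 0.0413). This was the only 1 of 25 members with such a difference, against 0.435% of all genes. The test was not repeated with 1 mouse left out. Between monocyte- and neutrophil-like cells 0 of 22 members differed (edgeR, 4 at an unadjusted p under 0.05, 0.154% of all genes called), and between macrophage- and neutrophil-like cells 0 of 24 (8 at an unadjusted p under 0.05, 0.09% called).

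**Figure D3:**
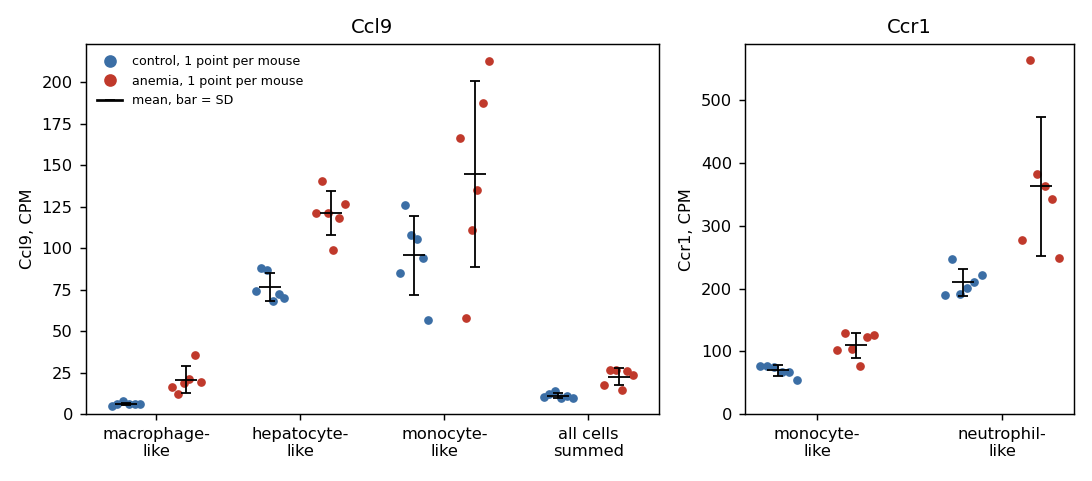
Levels in CPM, on linear axes from 0, of Ccl9 in 3 classes and in all cells summed and of its receptor Ccr1 in monocyte- and neutrophil-like cells, with 1 point per mouse (blue control, red anemia, 6 each) and the mean with its SD as bars. Anemic points lie above all control points for Ccl9 in macrophage- and hepatocyte-like cells and for Ccr1 in neutrophil-like cells, and overlap them for Ccl9 in monocyte-like cells.

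Monocyte markers moved with the Ccl9 result in macrophage-like cells, where 6 of the 8 were higher in mean, 1 of them called, and their summed level ranged from 1021 to 1743 CPM in controls and 1146 to 2685 CPM in anemic mice. None of the 8 was at 0. Summed hepatocyte markers were 2976 to 4236 CPM in the controls and 845 to 3685 CPM in the anemic mice, with 0 of 9 higher in mean, so they moved in the opposite direction. Erythroid markers were higher in mean for 9 of 9, 3 of them called, with sums of 973 to 6558 CPM in controls and 5456 to 16312 CPM in anemic mice. The part of these markers in the Ccl9 result was not tested.

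The other members named in macrophage-like cells were not called, and 9 members in all had an unadjusted p under 0.05. Cxcl2, a ligand of Cxcr2, stood at 3046 ± 466 CPM in controls and 1793 ± 905 CPM in anemic mice (log2 fold change -0.71, adjusted p = 0.234). Ccl24 stood at 837 ± 81.3 and 452 ± 220 CPM and each of the 6 anemic mice was below all controls, yet the adjusted p was 0.168. These 2 genes were lowest in anemia 2, at 608 and 104 CPM. Cxcl1 had a negative log2 fold change (-0.83, adjusted p = 0.245) and so had Ccl2 (-0.28), Cxcl10 (-0.17, and -0.79 with adjusted p = 0.0811 without anemia 2) and Ccl4 (-0.16, and -0.27 without anemia 2). Ccl6, the near relative of Ccl9 that shares its receptor, stood at 398 ± 46.8 and 510 ± 111 CPM (0.42, adjusted p = 0.135, and adjusted p = 0.0171 without anemia 2). Ccl7 and Cxcl16 had values of 0.24 and 0.14. Cluster 32 made up 26% to 36.3% of macrophage-like cells in controls and 32.2% to 92.8% in anemic mice, and pooled at 1096 CPM of Cxcl2, 39.5 CPM of Cxcl1 and 103 CPM of Ccl2, against 2824, 109 and 187 CPM in cluster 1. Cells of cluster 32 were shallow, with a median of 852 UMIs against 6504 in cluster 1. The part of depth in these differences was not tested. Within cluster 1 the log2 fold changes of Cxcl2, Cxcl1, Ccl2 and Ccl24 were -0.71, -0.76, -0.31 and -0.81, and within cluster 32 they were -0.65, -0.70, -0.37 and -0.83, none of them called.

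In monocyte-like cells Ccr1 rose, 1 of 25 members called against 0.75% of all genes. It stood at 77.1, 77.5, 75.3, 66.9, 67.5 and 55 CPM in the controls and at 102, 129, 104, 77.1, 123 and 125 CPM in the anemic mice. Only anemia 4 lay within the control range. The means were 69.9 ± 8.66 and 110 ± 19.8 CPM and the log2 fold change was 0.74 ± 0.15 (adjusted p = 0.0243). The value stayed between 0.63 and 0.81 without each mouse in turn, but the call was lost without control 1, control 3, control 4, control 5, control 6 or anemia 3. The 9 neutrophil markers are given beside it, because Ccr1 was highest in neutrophil-like cells. Of the 9, none at 0, 6 were higher in mean in the monocyte-like cells of anemic mice and 1 was called, with sums of 1024 to 1516 CPM in controls and 581 to 4041 CPM in anemic mice. Erythroid markers were higher for 9 of 9 (3 called, sums of 1421 to 8683 and 7606 to 29418 CPM), megakaryocyte markers for 8 of 8 (1 called, 1.57 to 11.9 and 15.7 to 32.3 CPM) and hepatocyte markers for 0 of 9 (2 called lower, 4046 to 6342 and 742 to 4017 CPM). The part of these markers in the Ccr1 result was not tested. Within cluster 33, led by Arhgef37, Ace and F13a1, Ccr1 rose by 0.76 ± 0.14 (adjusted p = 0.00785), and in cluster 55, led by Ly6i, Saa3 and Nos2, its log2 fold change was 0.24 ± 0.29 (adjusted p = 0.867). Cluster 55 made up 5.6% to 19.5% of the monocyte-like cells of controls and 13.4% to 88.5% of those of anemic mice, with 88.5% in anemia 2 and 54.7% in anemia 3.

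The other named members of monocyte-like cells were not called, and 10 members had an unadjusted p under 0.05. Ccl5 stood at 134 ± 88.9 CPM in controls and 1418 ± 2514 CPM in anemic mice, but 4 of the 6 anemic mice lay below all controls and the mean rested on anemia 2 (6274 CPM) and anemia 3 (2073 CPM). Its log2 fold change of 3.55 (adjusted p = 0.162) was 1.83 without anemia 2. Cxcl2 stood at 724 ± 264 and 1349 ± 607 CPM (0.99, adjusted p = 0.113) and Ccl4 at 273 ± 53.1 and 471 ± 221 CPM (0.90, adjusted p = 0.101). Ccr2 stood at 384 ± 31.8 and 448 ± 136 CPM (0.28, adjusted p = 0.426) and Cxcr4 at 351 ± 51.8 and 237 ± 110 CPM (-0.53, adjusted p = 0.35). Ccrl2, Ccl3 and Ccl6 had log2 fold changes of 0.71, 0.41 and 0.18, and Cx3cr1 of -0.30. Without anemia 2 the values of Ccl4, Ccrl2, Ccl6 and Cx3cr1 were 0.56, 0.29, 0.30 and -0.16.

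In neutrophil-like cells 0 of 25 members were called with edgeR, against 0.384% of all genes, although 12 had an unadjusted p under 0.05 and DESeq2 called 2. The share of all genes that DESeq2 called there is not given. The median log2 fold change of the 25 was 0.78, against 0.02 over all genes tested, but without anemia 2 it was 0.23 over the 24 then tested. Ccr1 stood at 190 to 246 CPM in controls and at 278, 563, 382, 363, 342 and 249 CPM in anemic mice, so that each of the 6 anemic mice was above all controls. Its log2 fold change was 0.78 ± 0.17 (adjusted p = 0.0585), and 0.61 (adjusted p = 0.0284) without anemia 2. Beside it, erythroid markers were higher in mean for 9 of 9 (3 called), with sums of 1349 to 12810 CPM in controls and 16192 to 29267 CPM in anemic mice. B-cell markers were higher for 0 of 8 (2 called lower, 210 to 452 and 127 to 201 CPM) and hepatocyte markers for 0 of 9 (1 called lower, 4977 to 7502 and 1202 to 5507 CPM). None was at 0, and their part in the Ccr1 values was not tested. Cxcl2 stood at 1436 ± 198 and 4068 ± 4102 CPM, with anemia 2 at 12162, and its log2 fold change of 1.49 (adjusted p = 0.133) was 0.76 without that mouse. The inflammatory ligands Ccl4, Ccl3 and Cxcl10 and the receptor Ccrl2 followed the same pattern, with log2 fold changes of 2.18, 1.85, 2.48 and 1.56 that became 0.56, 0.52, -0.19 and 0.53 without anemia 2. Ccl5 had a value of 1.12 that became -0.15. Cxcr2 (0.23, adjusted p = 0.342), Cxcr4 (0.15, adjusted p = 0.665) and Ccl6 (0.13, adjusted p = 0.689) had small values. Cluster 2 made up 34.8% to 45.4% of neutrophil-like cells in controls and 47.1% to 87.1% in anemic mice, and the share of clusters was not separated from the level in these fits. The log2 fold change of Ccr1 was 0.68 within cluster 17 (adjusted p = 0.0804) and 0.23 within cluster 2 (adjusted p = 0.465).

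In stellate-like cells 10 of 38 members were called (26.3%), where 15% of all genes were called. Of the 10, Ccl21a and Ccr1 averaged under 5 UMIs per control mouse (2.17 and 2.83) and were tested only through the anemic mice (10 and 7.5), so their calls are given as values only. The share of 26.3% counts them, so it is not read as a result about the members. The same filter was applied to all genes. Cxcl12 fell. It stood at 1179, 1184, 1562, 1280, 1288 and 1048 CPM in the controls and at 814, 731, 529, 902, 845 and 901 CPM in the anemic mice, and each anemic mouse was below all controls. The means were 1257 ± 173 and 787 ± 142 CPM and the log2 fold change was -0.58 ± 0.13 (adjusted p = 0.00647), called without each mouse and in all 10 alternatives. Ccl12, a ligand of Ccr2, also fell, from 6.12 ± 1.9 to 3.36 ± 1.04 CPM (-0.84, adjusted p = 0.0478), a call lost without any 1 of 9 of the mice (all but control 3, control 5 and anemia 2).

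The ligands Ccl19, Ccl7, Ccl11 and Cx3cl1 rose in stellate-like cells. Ccl19 stood at 35.6, 45.9, 48.8, 35.7, 32.1 and 42.8 CPM in controls and at 71.2, 334, 203, 71.6, 60.5 and 65.3 CPM in anemic mice. All anemic mice were above all controls, and anemia 2 and anemia 3 were far above the other 4. The means were 40.2 ± 6.65 and 134 ± 112 CPM and the log2 fold change was 1.77 ± 0.40 (adjusted p = 0.00663), or 1.20 (adjusted p = 0.00533) without anemia 2. Ccl7, which recruits monocytes, stood at 8.86 to 29.5 CPM in controls and at 17.8 to 99.2 CPM in anemic mice, with means of 16.2 ± 8.1 and 46.6 ± 29.6 CPM (1.63 ± 0.37, adjusted p = 0.00759, and 1.35 without anemia 2). Ccl11 rose from 9.14 ± 3.91 to 17.2 ± 8.57 CPM (1.01, adjusted p = 0.0358), a call lost without control 1, control 4, control 5, control 6, anemia 2 or anemia 6. It was also lost without doublets (1.25, adjusted p = 0.0565), with Y-linked expression as covariate (1.03, adjusted p = 0.0617) and at Leiden resolution 1 (0.89, adjusted p = 0.0547). Ccl21a stood at 0.429 ± 0.508 and 2.18 ± 2.23 CPM (2.60, adjusted p = 0.0193) and Cx3cl1 rose from 1.95 ± 0.753 to 3.94 ± 2.17 CPM (1.05, adjusted p = 0.0396), both at low levels. In the joint limma voom model Ccl21a was not called (2.83, adjusted p = 0.14). The Cx3cl1 call was lost without any 1 of 9 of the mice (all but control 3, anemia 1 and anemia 3), with adjusted p = 0.0615 without anemia 2. Without doublets its value was 0.65 (adjusted p = 0.35).

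Among receptors of stellate-like cells Ackr3 rose from 40.1 ± 8.74 to 58.1 ± 12.6 CPM (0.62 ± 0.16, adjusted p = 0.0168) and Ackr4, a scavenger of Ccl19 and Ccl21a, from 10.2 ± 1.16 to 14.2 ± 4.18 CPM (0.64, adjusted p = 0.016), while Ccr1 stood at 0.599 ± 0.432 and 3.59 ± 3.54 CPM (2.14, adjusted p = 0.0445). The calls of Ackr3 and Ackr4 were lost without anemia 6, and that of Ccr1 without control 1, control 2, control 4, control 5, control 6 or anemia 3. The Ackr4 call was also lost without doublets (0.71, adjusted p = 0.0926) and at Leiden resolution 1 (0.48, adjusted p = 0.0677), and that of Ccr1 at Leiden resolution 1 (1.98, adjusted p = 0.0512). Neutrophil markers moved with the receptor Ccr1, with 5 of 9 called higher in the class and sums of 110 to 292 CPM in controls and 235 to 730 CPM in anemic mice. Their part in it was not tested. The named members not called were Cxcl9 (34.9 ± 16.3 and 167 ± 287 CPM, 2.31, adjusted p = 0.0745, but 0.36 without anemia 2), Cxcl1 (0.76, adjusted p = 0.0739), Ccl5 (1.44, adjusted p = 0.155), Ccl2 (0.56), Cxcl2 (0.35), Cxcl10 (0.07), Cxcl16 (0.03) and Cx3cr1 (-0.20). Without anemia 2 the values of Ccl5, Ccl2 and Cxcl2 were 0.46, 0.016 and 0.18, and those of Cxcl10 and Cxcl16 turned to -0.20 and -0.13. With doublets removed, the value of Cxcl10 was -0.94 (adjusted p = 0.00714).

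The stellate-like class joined 2 clusters whose shares differed between the groups. Cluster 40, led by Mfap4, Col1a1, Dpt and Lum, made up 31.3% to 52.6% of the class in controls (median 38.5%) and 55.1% to 81.5% in anemic mice (median 68.8%), without overlap, and cluster 0, led by Colec11 and Reln among others, made up the rest. Within cluster 40, 0 of 30 members were called with edgeR, where 0.462% of all genes were. There Ccl19 stood at 125 ± 14.2 and 213 ± 157 CPM (0.77, adjusted p = 0.402), Ccl7 at 35.2 ± 13.6 and 68.7 ± 37.2 CPM (1.00, adjusted p = 0.192) and Cxcl12 at 1117 ± 99.6 and 892 ± 183 CPM (-0.26, adjusted p = 0.488). Within cluster 0, 2 of 30 members were called, where 6.41% of all genes were. These were Cxcl12, which fell from 1325 ± 271 to 659 ± 207 CPM (-0.90 ± 0.17, adjusted p = 0.00255), and Ackr1, which fell from 11.5 ± 2.79 to 6.14 ± 1.32 CPM (-0.75, adjusted p = 0.0488). Ackr3, Ackr4 and Ccl11 had negative log2 fold changes within cluster 0 (-0.38, -0.07 and -0.01) and positive ones within cluster 40 (0.40, 0.59 and 0.31), none of them called. The rise of these genes over the whole class is therefore given with the share of cluster 40 beside it, and the 2 cannot be told apart there.

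**Figure D4:**
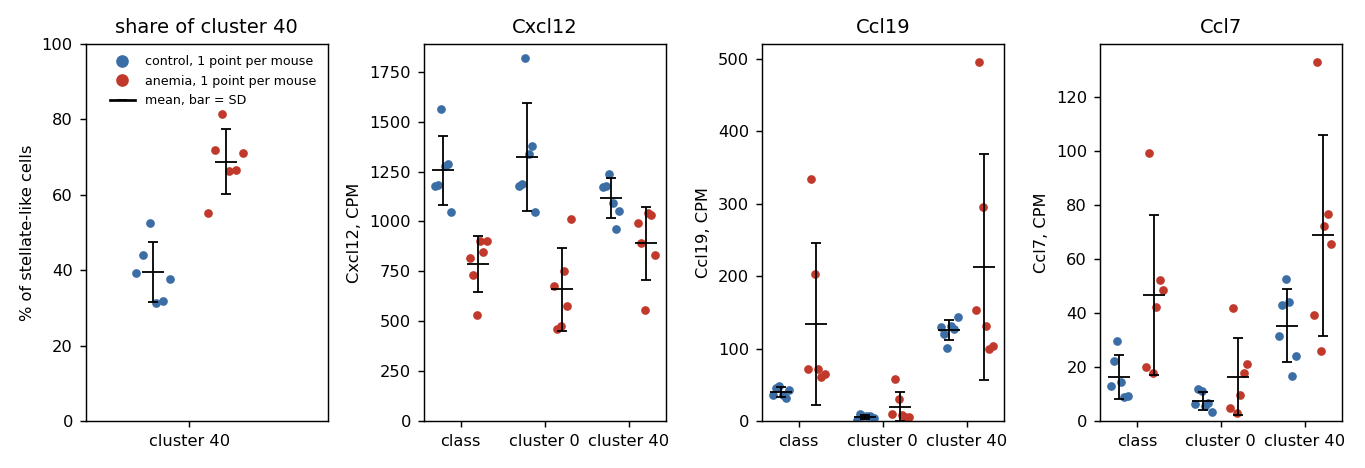
Left, cluster 40 as a percentage of stellate-like cells, and right, levels in CPM on linear axes of Cxcl12, Ccl19 and Ccl7 in the whole class, in cluster 0 and in cluster 40, with 1 point per mouse (blue control, red anemia, 6 each) and the mean with its SD as bars, cut at 0. The share of cluster 40 does not overlap between groups (31.3% to 52.6% against 55.1% to 81.5%), Cxcl12 is lower in anemia in the class and in cluster 0, and Ccl19 is higher in cluster 40 than in cluster 0 in both groups.

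In endothelial-like cells 6 of 37 members were called (16.2%), where 18.5% of all genes were called, a share near the background. Cxcl9 rose on average but only in some mice. It stood at 35.2 to 82 CPM in controls and at 54.7, 1172, 476, 50, 43.7 and 53.7 CPM in anemic mice. Anemia 2 and anemia 3 were far above all others, and the remaining 4 anemic mice lay inside the control range. The log2 fold change was 2.76 ± 0.81 (adjusted p = 0.0289), or 1.50 (adjusted p = 0.0977) without anemia 2, and the call was also lost without control 1, control 4, control 5 or control 6. With the replicate number as a block it was 1.40 (adjusted p = 0.113). Within clusters 25, 26, 27 and 28 Cxcl9 was called (log2 fold changes of 2.17, 4.07, 2.29 and 2.80) and within cluster 29 it was not (2.23, adjusted p = 0.274), and the same 2 mice were the highest in each. Cxcl10 stood at 590 ± 193 and 863 ± 458 CPM (0.67, adjusted p = 0.172), with 1566 CPM in anemia 2 and 1235 CPM in anemia 3. Without anemia 2 the anemic mean was 723 ± 337 CPM and the log2 fold change 0.38 (adjusted p = 0.406).

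**Figure D5:**
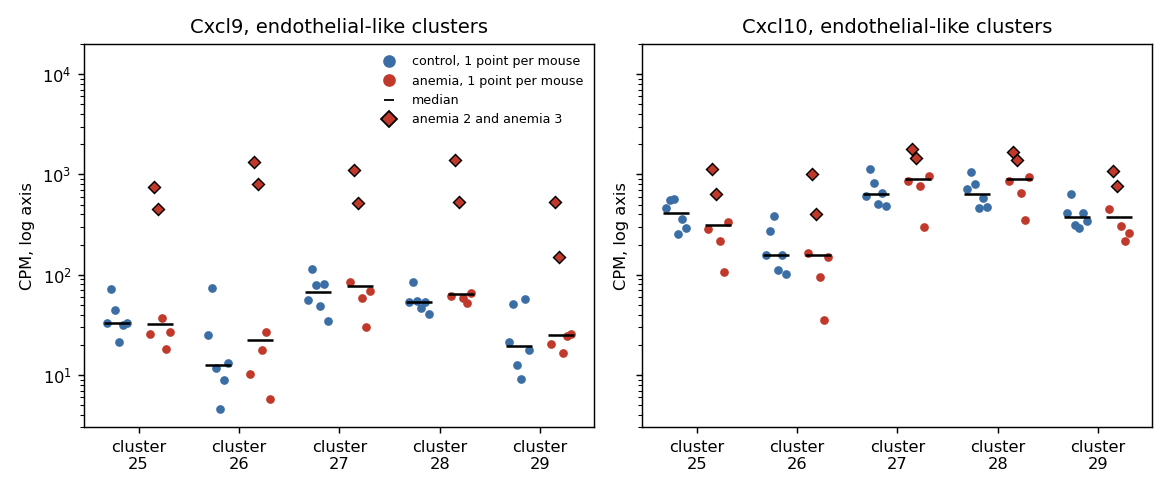
Levels in CPM, on log axes, of Cxcl9 (left) and Cxcl10 (right) in the 5 endothelial-like clusters, with 1 point per mouse (blue control, red anemia, 6 each), diamonds for anemia 2 and anemia 3 and short lines for the median. The diamonds are the highest points for Cxcl9 in every cluster, and the other 4 anemic mice lie among the controls or near them.

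The other calls in endothelial-like cells were of low levels. Ccrl2 rose from 7.96 ± 1.34 to 15 ± 9.51 CPM (1.01, adjusted p = 0.0449, and 0.60 with adjusted p = 0.0776 without anemia 2), a call lost without any 1 of 8 of the mice (all but control 2, anemia 1, anemia 4 and anemia 6). Ccl24 fell from 6.37 ± 1.4 to 2.83 ± 1.06 CPM (-1.06, adjusted p = 0.007), Cxcr5 from 4.31 ± 0.439 to 1.95 ± 0.502 (-1.03, adjusted p = 0.00106), Ackr4 from 8 ± 0.599 to 5.02 ± 1.35 (-0.55, adjusted p = 0.0238) and Ccr4 from 1.83 ± 0.354 to 1.05 ± 0.232 CPM (-0.68, adjusted p = 0.0335), each without overlap between the groups. The Ackr4 call was lost without control 2, control 4 or control 5, and the Ccr4 call without control 1, control 2, control 4, control 6, anemia 2, anemia 5 or anemia 6. The Ccr4 call was also lost with the replicate number as a block (-0.69, adjusted p = 0.0566) and without the filter on low counts (-0.69, adjusted p = 0.0668). The Ccrl2 call was also lost without TMM scaling (0.90, adjusted p = 0.0553) and with Y-linked expression as covariate (1.04, adjusted p = 0.0552). In the joint limma voom model neither Ackr4 (-0.43, adjusted p = 0.0598) nor Ccrl2 (0.49, adjusted p = 0.22) was called. Cluster 28 made up 30.1% to 48.6% of the class in controls and 52.4% to 60.2% in anemic mice, so level and cluster share are not separated in these class values. Ccl24, Cxcr5 and Ccr4 have their highest levels in macrophage-, B- and T-like cells. Beside them, the sums of T-cell markers in endothelial-like cells were 26.4 to 37.5 CPM in controls and 12.7 to 26.3 CPM in anemic mice (1 of 9 higher in mean), those of B-cell markers 27.9 to 58.9 and 22.6 to 38.6 CPM (3 of 8 higher), and those of macrophage markers 268 to 330 and 238 to 492 CPM (7 of 10 higher). None of these markers was at 0, and their part in the calls was not tested.

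The named members of endothelial-like cells that were not called included the atypical receptors Ackr2 and Ackr3. Ackr2 stood at 47 ± 7.3 and 54 ± 6.46 CPM (0.31, adjusted p = 0.0701) and was called within clusters 27 (0.49, adjusted p = 0.0222) and 28 (0.40, adjusted p = 0.0238). Ackr3 stood at 47.4 ± 4.46 and 30.9 ± 12.2 CPM (-0.50, adjusted p = 0.0906). Cx3cr1 stood at 114 ± 9.55 and 79.6 ± 27.9 CPM (-0.42, adjusted p = 0.089) and was called within cluster 25 (-0.90, adjusted p = 0.0021), a cluster whose share of the class was 28.6% to 41% in controls and 7.93% to 13.2% in anemic mice. Ccl21a (0.63), Cxcl12 (0.92), Cxcl2 (0.79), Ccl5 (0.54) and Cxcl16 (0.26) had overlapping values and adjusted p from 0.11 to 0.594. Without anemia 2 the values of Cxcl2, Ccl5 and Cxcl16 were 0.53, 0.065 and 0.045. Within single clusters Ccl5 was called in cluster 26 (1.49, adjusted p = 0.0352), with anemia 2 the highest at 321 CPM, and Ccl4 in cluster 27 (2.43, adjusted p = 0.0263). The fall of Cxcr5 was called in clusters 25 and 28 and that of Ccl24 in cluster 28. For Cxcl12, anemia 6 stood at 233 CPM and the other 5 anemic mice at 16.6 to 54.1 CPM.

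In hepatocyte-like cells 9 of 22 members were called (40.9%), below the 54.4% of all genes called there, so these calls do not set the members apart. Besides Ccl9, Ccl27a rose from 16.8 ± 3.29 to 21.5 ± 3.57 CPM (0.71, adjusted p = 0.000984), and without TMM scaling its value was 0.33 (adjusted p = 0.0657) and without doublets 0.36 (adjusted p = 0.0764). Ccl4 rose from 13.5 ± 3.95 to 20.4 ± 12.9 CPM (0.77, adjusted p = 0.0318), with anemia 2 at 45.1 CPM, and was at 0.44 (adjusted p = 0.0765) without that mouse and at 0.54 (adjusted p = 0.306) without doublets. The Ccl4 call was also lost without TMM scaling (0.40, adjusted p = 0.265), at Leiden resolution 1 (0.54, adjusted p = 0.159) and in the joint limma voom model (0.48, adjusted p = 0.496). Cxcl12 fell from 201 ± 13.2 to 125 ± 12.8 CPM (-0.37, adjusted p = 0.00162). Its controls lay between 180 and 213 CPM and its anemic mice between 106 and 146, and it was also called within clusters 8 (-0.54) and 11 (-0.56). Cxcl1 fell from 78.4 ± 22.1 to 37 ± 14.6 CPM (-0.81, adjusted p = 0.00924), Cxcl10 from 97.9 ± 30.3 to 40.5 ± 23.6 (-1.02, adjusted p = 0.00327), Ccl2 from 8.9 ± 1.25 to 4.22 ± 3.55 (-1.03, adjusted p = 0.0144, and -0.48 with adjusted p = 0.404 without doublets), Cx3cr1 from 8.29 ± 1.99 to 3.29 ± 1.4 (-1.01, adjusted p = 0.00214) and Ccl25 from 11.9 ± 1.79 to 6.56 ± 2.1 CPM (-0.46, adjusted p = 0.0473). The Ccl25 call was lost without any 1 of 8 of the mice (all but control 2, anemia 1, anemia 4 and anemia 6), with -0.38 (adjusted p = 0.0629) without anemia 2, and also without doublets (-0.57, adjusted p = 0.0766), without the filter on low counts (-0.43, adjusted p = 0.1), with Y-linked expression as covariate (-0.42, adjusted p = 0.1), at Leiden resolution 1 (-0.43, adjusted p = 0.0639) and in the joint model (-0.41, adjusted p = 0.0936). Without anemia 2 the calls of Cxcl10 (-1.33, adjusted p = 1.84e-05) and Ccl2 (-1.43, adjusted p = 0.000123) were larger falls. The Ccl4 call was lost without control 2, control 5, control 6, anemia 2, anemia 3 or anemia 6. Cxcl2 (0.14), Cxcl9 (0.95, and -0.22 without anemia 2), Ccl5 (0.33) and Ccl6 (0.83) were not called, and without anemia 2 Cxcl2, Ccl5 and Ccl6 were at -0.16, 0.051 and 0.52.

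The hepatocyte-like class joined 5 clusters, and the shares of some differed between the groups. Cluster 8, led by Apob, Cps1 and Cyp2b9, made up 28.6% to 37.7% of the class in controls and 8.83% to 16.3% in anemic mice, without overlap. Clusters 12 and 44, both led by Gnmt, Uox and Ttc36 among others, had medians of 11.7% and 9.90% in controls and of 19.4% and 19.8% in anemic mice. Pooled over mice, Cxcl10 and Cxcl1 stood at 135 and 105 CPM in cluster 8, against 25.5 and 30.4 CPM in cluster 12 and 29.1 and 33.9 CPM in cluster 22. The median depth was 3388 UMIs per cell in cluster 8, 687 in cluster 12 and 801 in cluster 22. The part of depth in these differences was not tested. Within single clusters the direction turned for Cxcl10 in clusters 12 (0.10) and 22 (0.020) and for Cxcl1 in clusters 11 (0.19) and 44 (0.12). Over the whole class, level and cluster share cannot be told apart for these genes or for Ccl9. Ccl2 was called lower within cluster 8 (-1.53, adjusted p = 0.0111) and Ccl4 higher within cluster 22 (1.98, adjusted p = 0.0304).

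Markers of other liver cells moved with the falling genes in the hepatocyte-like class. Endothelial markers summed to 468 to 743 CPM in controls and 96 to 273 CPM in anemic mice and stellate markers to 468 to 757 and 30 to 188 CPM, with 9 of 9 called lower in both lists. Endothelial- and stellate-like cells are the classes with the highest Cxcl10 and Cxcl12. Macrophage markers summed to 381 to 512 and 336 to 1122 CPM, with 7 of 10 higher in mean. No marker of these lists was at 0, and their part in the calls was not tested.

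In lymphoid and dendritic classes the calls were mostly low levels of Cxcl12. In B-like cells 1 of 25 members was called, where 3.18% of all genes were, with Cxcl12 falling from 9.81 ± 1.46 to 4.7 ± 1.53 CPM (-1.05, adjusted p = 0.011). In NK-like cells 1 of 25 was called (0.76% of all genes), with Cxcl12 falling from 10.8 ± 1.87 to 3.69 ± 2.51 CPM (-1.55, adjusted p = 0.0341). In conventional dendritic-like cells 1 of 28 was called (0.905% of all genes), with Cxcl12 falling from 7.6 ± 2.07 to 2.93 ± 1.19 CPM (-1.49, adjusted p = 0.0316). In these 3 classes each anemic mouse was below all controls. The NK-like call was lost without any 1 of 8 of the mice (all but control 2, anemia 1, anemia 2 and anemia 6), and the conventional dendritic-like call without control 2, control 3, control 5, control 6, anemia 3 or anemia 5. In plasmacytoid dendritic-like cells 1 of 23 was called (1.31% of all genes), with Ccl24 falling from 20.9 ± 9.77 to 6.33 ± 3.25 CPM (-1.66, adjusted p = 0.0328, and -1.47 with adjusted p = 0.0701 without anemia 2), also lost without control 1, control 3, control 4, control 6 or anemia 3.

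These 4 calls were not made in the joint limma voom model, the kind of fit that the study used. Here it covered other classes, non-immune ones included, with Benjamini-Hochberg adjustment, so it does not repeat the study's own fit. There Cxcl12 was at -1.01 in B-like cells (adjusted p = 0.252), at -1.30 in NK-like cells (adjusted p = 0.349) and at -1.43 in conventional dendritic-like cells (adjusted p = 0.422), and Ccl24 at -1.51 in plasmacytoid dendritic-like cells (adjusted p = 0.228). With Y-linked expression as covariate the dendritic calls were also lost, at -1.44 for Cxcl12 (adjusted p = 0.0626) and -1.56 for Ccl24 (adjusted p = 0.0745).

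Each of these genes belongs to another class by level, and markers of other cells moved beside them. Hepatocyte markers summed to 4049 to 5716 CPM in B-like cells of controls and to 883 to 3545 CPM in anemic mice, to 3816 to 5588 and 620 to 3585 CPM in NK-like cells, and to 1831 to 2867 and 375 to 2878 CPM in conventional dendritic-like cells, with 0 of 9 higher in mean in each. Stellate markers summed to 100 to 131 and 72.2 to 118 CPM in B-like cells, to 30.5 to 59.7 and 11.5 to 47.9 CPM in NK-like cells, and to 20.5 to 46.4 and 17.1 to 40 CPM in conventional dendritic-like cells. In plasmacytoid dendritic-like cells macrophage markers summed to 179 to 853 and 192 to 467 CPM, with 0 of 10 higher in mean and 3 called lower. None of these markers was at 0, and their part in the Cxcl12 and Ccl24 values was not tested.

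In the remaining classes 0 members were called with edgeR and 0 with DESeq2. They were granulocyte progenitor-like cells (22 members tested, 7 at an unadjusted p under 0.05, 0.0474% of all genes called), pre-B-like cells (17 tested, 3 under 0.05, 1.45% called), T-like cells (21 tested, 1 under 0.05, 0.793% called), basophil/mast-like cells (15 tested, 2 under 0.05, 0.133% called), erythroid-like cells (23 tested, 7 under 0.05, 0.6% called) and cholangiocyte-like cells (16 tested, 4 under 0.05, 0.0206% called).

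Summed over all cells of a liver, 6 of 56 members were called (10.7%), where 6.92% of all genes were. In such sums, fewer cells of a type and less RNA per cell cannot be told apart. Ccl9 rose from 11.4 ± 1.72 to 22.6 ± 5.2 CPM (1.25 ± 0.19, adjusted p = 0.00237), with no overlap and no mouse on which the call rested. Its receptor Ccr1 rose from 9.16 ± 1.89 to 30.2 ± 24.1 CPM (2.03, adjusted p = 0.0217, and 1.50 without anemia 2), also without overlap. Ccr2 rose from 17.5 ± 3.34 to 40.1 ± 28.1 CPM (1.50, adjusted p = 0.0451, and 1.05 with adjusted p = 0.0669 without anemia 2), Cxcr2 from 4.38 ± 0.892 to 7.43 ± 3.37 (1.03, adjusted p = 0.0486, and 0.94 with adjusted p = 0.0814 without anemia 2) and Ccl6 from 106 ± 9.21 to 151 ± 41.5 CPM (0.77, adjusted p = 0.0333). Ccl24 fell from 158 ± 30.7 to 62 ± 27.7 CPM (-1.16, adjusted p = 0.0399) and every anemic mouse was below all controls. Beside these values, monocyte-like cells were 1.89% of control and 7.51% of anemic cells, or 3.95% without anemia 2. They were 25.5% of the cells of anemia 2, 9.82% of anemia 3, and 1.67% to 2.68% of the other 4 anemic mice, against 1.61% to 2.52% in controls. Macrophage-like cells were 11.0% of control and 6.65% of anemic cells. Neutrophil-like cells were 5.00% of control and 6.73% of anemic cells, or 5.68% without anemia 2. They were 12.0% of the cells of anemia 2 and 8.47% of anemia 3. The calls of Ccr2 and Cxcr2 were lost without any 1 of 9 of the mice (all but anemia 1, anemia 4 and anemia 6), that of Ccl24 without any 1 of 8 (all but control 3, anemia 1, anemia 2 and anemia 6), that of Ccl6 without control 1, control 3, control 4, control 5, control 6 or anemia 3 and that of Ccr1 without control 1, control 4, control 5 or control 6. Without doublets Ccr2 (1.40, adjusted p = 0.0766), Cxcr2 (0.90, adjusted p = 0.0892) and Ccl6 (0.66, adjusted p = 0.08) were not called, nor with Y-linked expression as covariate (1.52, 1.04 and 0.75, adjusted p = 0.069, 0.0856 and 0.0655). Ccl24 was not called with the replicate number as a block (-1.26, adjusted p = 0.0597).

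The platelet chemokines outside the symbol scheme were called higher in several classes. Pf4 rose in plasmacytoid dendritic-like cells from 14.1 ± 8.58 to 56.2 ± 28.2 CPM (1.96, adjusted p = 0.00916), in conventional dendritic-like cells from 10.6 ± 1.43 to 66.6 ± 62.9 (2.63, adjusted p = 0.014), in endothelial-like cells from 20.3 ± 9.59 to 42.3 ± 18.6 (1.18, adjusted p = 0.0136) and in stellate-like cells from 33.6 ± 15 to 78 ± 54.6 CPM (1.20, adjusted p = 0.0443). Ppbp rose in endothelial-like cells from 1.08 ± 0.491 to 8.23 ± 4.85 CPM (2.96, adjusted p = 0.000342). In plasmacytoid and conventional dendritic-like cells Ppbp averaged 1.17 and 3.33 UMIs per control mouse and was tested only through the anemic mice (14.3 and 45.3 UMIs), so its values there (3.60 and 3.45) are descriptions, and in the former it was not tested without anemia 2. The stellate-like call of Pf4 was lost without any 1 of 7 of the mice, among them anemia 2 (0.74, adjusted p = 0.0958), and without TMM scaling (1.10, adjusted p = 0.0525). These genes are known products of megakaryocytes and platelets, and megakaryocyte-like cells had no class of their own here. Ppbp was also a leading gene of cluster 41, the granulocyte progenitor-like class, with 0.853% of control and 1.21% of anemic cells. At Leiden resolution 1, Pf4 was a leading gene of an unnamed cluster with monocyte and macrophage markers. It held 0.27% of control and 0.824% of anemic cells. The part of any of these cells in the rises was not tested.

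Genes that act with chemokine receptors were counted from gene lists. Their counts stand beside 54.4% of all genes called in hepatocyte-like, 18.5% in endothelial-like, 15% in stellate-like and 1.45% in pre-B-like cells. Of the 83 calls of a list gene in a class, 27 were lost without at least 1 mouse and 9 without anemia 2. In hepatocyte-like cells each of the 7 called higher was lost without TMM scaling, and 0 of the 19 called lower were. Of 20 measured genes of receptor signaling (G protein subunits, arrestins, kinases and regulators), calls were made only in conventional dendritic-, hepatocyte-, endothelial- and stellate-like cells. In endothelial-like cells Rgs2, which limits G protein signaling, rose (1.33, adjusted p = 0.000744) and Prex1 and Arrb2 fell. In stellate-like cells 2 rose and 4 fell, the Arrb1 call among these being lost without any 1 of 9 of the mice. In hepatocyte-like cells 3 fell, of which the Elmo1 call was lost without any 1 of 9, and the calls of Gnb1 (0.57) and Gnai3 (0.28) came with TMM scaling, without which they were 0.19 (adjusted p = 0.0684) and -0.10 (adjusted p = 0.276). Of 10 integrins, selectins and their ligands, Itgam, a chain of the Mac integrin, rose in macrophage-like cells from 28.9 ± 7.56 to 66.2 ± 32.1 CPM (1.30, adjusted p = 0.0279), Selplg, the selectin ligand, rose in neutrophil-like cells (0.67, adjusted p = 0.0453), and Icam1 and Vcam1, the endothelial ligands of integrins, rose in endothelial-like cells (0.42 and 1.40, adjusted p = 0.0193 and 0.0173). Without anemia 2 these were 0.42 and 0.86 (adjusted p = 0.0308 and 0.0163), and without TMM scaling Icam1 was at 0.33 (adjusted p = 0.0577). Itgb7 and Selplg fell there. In hepatocyte-like cells Icam1 (-1.19), Vcam1 (-0.88) and Itgb1 (-0.53) fell, as did Icam1 in pre-B-like cells (-0.68) and Selplg in stellate-like cells (-0.74). In controls Icam1 and Vcam1 stood at 266 and 90.1 CPM in endothelial-like and at 112 and 53.8 CPM in hepatocyte-like cells. Endothelial and stellate markers also fell in hepatocyte-like cells, as given above. Their part in the falls of list genes in that class was not tested. The Itgam call was lost without any 1 of the 6 controls and the neutrophil-like Selplg call without any 1 of 8 of the mice.

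Of 11 genes of NF-kB feedback and early cytokines, 5 rose in endothelial-like and the same 5 in stellate-like cells, namely Nfkbia, Nfkb1, Tnfaip3, Il6 and Socs3, while Il1a fell in both, so that 6 of 11 were called in each. The endothelial-like calls of Nfkb1 (0.20) and Il6 were lost without any 1 of 9 and of 4 of the mice, with 0.19 for Nfkb1 (adjusted p = 0.0709) without anemia 2, and the stellate-like calls of Nfkbia and Tnfaip3 without any 1 of 6 and of 3. Endothelial-like Nfkb1 and stellate-like Nfkbia and Tnfaip3 were also not called without TMM scaling (0.11, 0.22 and 0.39, adjusted p = 0.272, 0.0948 and 0.0567). In hepatocyte-like cells 8 of 10 tested fell and Il1b rose, the last not called without anemia 2 (0.91, adjusted p = 0.0655), and the Ier3 call among the 8 was lost without any 1 of 9 of the mice. In pre-B-like cells Nfkbia and Nfkb1 fell (-0.35 and -0.38), in plasmacytoid dendritic-like cells Tnfaip3 fell (-0.59) and in conventional dendritic-like cells Tnf fell (-0.71). The pre-B-like calls of Nfkbia and Nfkb1 were lost without any 1 of 6 (among them anemia 2, at -0.34 with adjusted p = 0.052) and of 3 of the mice, and that of Tnf without any 1 of 7. In monocyte-like cells only Ier3 of this list was called (0.81, adjusted p = 0.0471), a call lost without any 1 of 8 of the mice (all but anemia 1, anemia 2, anemia 4 and anemia 5) and without TMM scaling (0.72, adjusted p = 0.0587). Of the chemokine-modifying proteases, Mmp8 rose in monocyte-like cells (0.97, adjusted p = 0.0192) and Dpp4, which trims the start of many chemokines, fell in stellate- and hepatocyte-like cells and rose in pre-B-like cells. Adam10 (-0.40) and Adam17 (-0.57) also fell in hepatocyte-like cells. The Mmp8 call was lost without control 1, control 4, control 6 or anemia 3, and the stellate-like Dpp4 call without any 1 of 6 of the mice. The 14 interferon response genes had median log2 fold changes of 0.76 in endothelial-like and 0.06 in stellate-like cells, the classes with the highest Cxcl10, against 0.01 over all genes in both, and none of them was called there by edgeR. These medians are not given without anemia 2, so how far they rest on that mouse is not shown. Of this list Rsad2 rose in pre-B-, T-, conventional dendritic- and hepatocyte-like cells, and Isg15 rose in pre-B- and hepatocyte-like cells (1.33 and 1.15, and 1.16 and 0.58 without anemia 2). The Rsad2 call was lost without any 1 of 3 of the mice in T-like and of 6 in conventional dendritic-like cells. In hepatocyte-like cells Irf7 rose (1.40, adjusted p = 0.0346, and 0.45 with adjusted p = 0.155 without anemia 2) and Oasl2 fell (-1.10, adjusted p = 0.0167).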

How the data were processed

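Single-cell RNA libraries of 6 control and 6 anemic livers (1 library per mouse) were deposited by the authors as counts, that is UMIs per gene and cell barcode, made with Cell Ranger 7.0.0 per the file headers and the mm10 build per the labels. Seurat is also named in the submitters' processing notes, and no cell names of the authors were used. The labels name version 2 and the study's methods version 3.1 of the kit chemistry, so the version is unsure.

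Barcodes were kept if they held 500 to 50000 UMIs, of which no more than 50% mitochondrial (206146 of 207537, at a median of 1769 to 2889.5 UMIs per cell). Cells were clustered with scanpy 1.11.5 (2000 variable genes without the members, 20 principal components, 20 neighbours, Leiden resolution 2). A cluster was named from its marker lists if at least 3 markers were raised 2-fold and at 20 CPM or more. The naming rule was completed after the clusters were seen, and the members and gene lists were chosen with earlier results of these data known. Doublets were scored against artificial pairs of cells (11.3% to 17% of a library past the limit) and kept in the main analysis.

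UMIs were summed per mouse and class (at least 10 cells). Genes averaging 5 UMIs or more over the mice, mitochondrial and ribosomal ones excepted, were tested with the quasi-likelihood test of edgeR 4.0.16 with TMM scaling (R 4.3.3, two-sided, Benjamini-Hochberg adjustment over all genes tested in the class). The study used a joint limma voom fit over its own immune cell types. A fit of that kind over the classes named here (limma 3.58.1) was run as an alternative, as was DESeq2 1.42.0. The other alternatives were no TMM scaling, no filter, a mean of 50 UMIs, Y-linked expression as covariate, a limit of 10% for mitochondrial UMIs, no doublets, a block for the replicate number, Leiden resolution 1, and leaving out each mouse. Fits within single clusters and with a mixed macrophage and monocyte cluster were added after seeing the data. The share of all genes called within a cluster is given for clusters 0, 1 and 40 only. Calls within other clusters are therefore not set against all genes. Scripts were tested on simulated counts with known changes. Of 100 genes changed 2-fold, 44 were called in monocyte-, 72 in macrophage- and 51 in neutrophil-like counts. Of 100 genes changed 4-fold, 83, 96 and 85 were called, so a member not called may still have changed. Named were all called members, the 10 tested members of highest level in macrophage-, monocyte-, neutrophil-, endothelial-, stellate- and hepatocyte-like cells, and the highest class of each member at 20 CPM or more. Values of 1 member and of 1 gene of the pathway lists are not reported here, while the counts over members and lists include them.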

Additional observations from a re-analysis of the deposited data

Results flagged for a closer look

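Among 74 groups of 6 mice, the highest or lowest mouse stood apart from the rest by Dixon's criterion in 9, of which 5 were anemia 2. Chance gives about 1 in 20 such groups if they are independent and their values normal. These groups share the same mice, so that rate may not apply. In hepatocyte-like cells anemia 2 stood at 86.8 CPM of Cxcl10 (next anemic mouse 40.1), at 11.1 CPM of Ccl2 (next 4.18) and at 45.1 CPM of Ccl4 (next 23). The same mouse stood at 32.7 CPM of Ccrl2 in endothelial-like cells (next 16.9) and at 8.09 CPM of Cx3cl1 in stellate-like cells (next 3.8). In macrophage-like cells anemia 5 stood at 36.1 CPM of Ccl9 (next 21.2).

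Among controls, control 3 stood at 3.45 CPM of Cx3cl1 (next 1.88) and at 1.38 CPM of Ccl21a (next 0.455) in stellate-like cells, and control 2 at 23.8 CPM of Ccr2 in all cells summed (next 17.6).

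The log2 fold change of Ccl9 in anemia differed between 2 cell classes by a test of the difference. Its log2 fold change in monocyte-like minus that in macrophage-like cells was -1.12 (adjusted p = 0.0413). The monocyte-like class joined 2 clusters whose shares differed between mice (cluster 55 made up 88.5% of it in anemia 2), and the test was not run within them. It was also not repeated with 1 mouse left out, and Ccl9 started from a higher CPM in monocyte-like than in macrophage-like controls.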

How the results depend on the processing

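The share of all genes called is not given for the alternative fits, so the counts below are not read as results about the members. The 15 pairs of a member and a class called higher became 30 without the filter on low counts, 29 with the replicate block, 29 with DESeq2 and 23 in the joint limma voom model, and 8 to 22 with 1 mouse left out. The 16 called lower became 6 with a mean of at least 50 UMIs and 10 to 18 with 1 mouse left out. In monocyte-like cells the 1 member called became 2 without the filter, 5 with the replicate block and 3 in the joint model (0 to 2 with 1 mouse left out). In macrophage-like cells the 1 called became 4 with DESeq2, 6 in the joint model and 2 with the mixed cluster (1 to 4 with 1 mouse left out, 4 without anemia 2). In neutrophil-like cells the 0 called became 1 without TMM scaling, 3 without the filter, 2 with the replicate block, 2 with DESeq2 and 3 in the joint model (0 to 2 with 1 mouse left out). In all cells summed the 6 called became 3 without doublets and 10 with DESeq2 (1 to 7 with 1 mouse left out). Of 38 members at 20 CPM or more, 37 kept their highest class without doublets and 33 at Leiden resolution 1.

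Further calls were lost with at most 10% mitochondrial UMIs for Ccl25 (-0.21, adjusted p = 0.587), Ccl27a (0.33, adjusted p = 0.158), Ccl4 (0.75, adjusted p = 0.0863) and Cxcl1 (-0.61, adjusted p = 0.0725) in hepatocyte-like cells, in the joint model for Cxcl12 in hepatocyte-like (-0.38, adjusted p = 0.0616) and Ccl12 in stellate-like cells (-0.89, adjusted p = 0.0586), with DESeq2 for Ccr4 in endothelial-like cells (-0.68, adjusted p = 0.0604), and without the filter on low counts for Ccl12 (-0.87, adjusted p = 0.0502) and Cx3cl1 (1.02, adjusted p = 0.0572) in stellate-like cells and Cxcr2 in all cells (1.03, adjusted p = 0.0558).

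Without doublets Cxcl10 in stellate-like cells turned to -0.94. Within single clusters the direction turned for Ackr3 (-0.38), Ackr4 (-0.074) and Ccl11 (-0.011) in cluster 0 of the stellate-like cells, for Ccl27a in hepatocyte-like clusters 12 (-0.39), 22 (-0.036) and 44 (-0.31), Cxcl10 in clusters 12 (0.10) and 22 (0.020) and Cxcl1 in clusters 11 (0.19) and 44 (0.12), and in endothelial-like cells for Ccrl2 in cluster 25 (-0.19) and Ackr4 in cluster 29 (0.12). The cause of these changes was not tested. The labels do not say that a replicate number marks a shared litter or day. Deviations of same-numbered mice correlated at -0.20 to 0.49, so not every pair was over 0.1, and in 9 of 24 cases a number's best partner was its own, so the replicate block was kept as an alternative and whether the numbers pair the mice is not settled. Cholangiocyte- and basophil/mast-like cells had too few UMIs to test more than 16 members.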
